A study of Mus musculus with 6 samples.

Results

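Chemokine ligands are the small secreted proteins that guide leukocytes, and their genes were chosen here by name. Every symbol made of Ccl or Cxcl, a number and at most 1 letter was taken, with Cx3cl1, Xcl1, Pf4 and Ppbp added. This gave 36 genes of the 23185 named genes on the arrays, each with 1 of 25206 probe sets. Ccl21a, Ccl21b, Ccl21c, Ccl21d, Ccl27a and Ccl27b match the naming rule and were not analysed here.

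Gene expression was measured on 6 single-colour arrays, each of total RNA from 1 sample of mouse bone marrow derived macrophages. The 3 control samples had received no compound. The 3 treated samples were given JG-98, which blocks chaperones of the Hsp70 family, at 0.3 micromole for 16 hours. The comparison asks how this compound alters the genes that macrophages express. The dose is labelled as an amount with no volume, and the labels name no vehicle, strain, sex or age. Nor do they say whether the replicates were separate animals or cultures. A p-value therefore reflects the spread among these samples alone, part or all of which may be technical.

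Chemokines fall into classes by the spacing of conserved cysteines near their start, written CC, CXC, CX3C and C. They bind G protein-coupled receptors on the cells they attract, and many share a receptor. Macrophages are known both for making some of them steadily and for switching on others when sensors of infection or injury act through NF-kB, AP-1 or interferon signalling.

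The deposited values are log2 levels, and no detection p-value was used. As a measure of what the arrays give for genes that macrophages largely do not use, the levels of 1368 olfactory, vomeronasal and trace amine receptor genes were taken. Their median was 1.70 and their 95th percentile 3.82 on the log2 scale. A gene with a mean over the 6 arrays below 3.82 is said to lie in the dim range, and one above 4.82, which is 1 log2 unit higher, is said to lie well above it. Probe sets differ in how well they bind, so a level shows whether a signal stands out, not which of several genes has more transcripts. Array medians lay between 4.08 and 4.24, with JG-98 replicate 3 the highest, and that array correlated with the others at 0.992 to 0.993, against 0.995 to 0.996 among the other 5.

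All 10 measured macrophage markers lay well above the dim range. Their summed linear signal was 16763 to 17002 on the control arrays and 15559 to 16535 on the JG-98 arrays, so the groups did not overlap. The markers differed in direction. Of the 10, 5 had every JG-98 value below every control value and 1, Cd68, had them above. Among all probe sets well above the dim range these shares were 15.0% and 11.3%. The T and NK cell list had 2 of 6 markers above the dim range, with Cd3e, Cd3g, Cd8a and Ncr1 in it. In the neutrophil list 1 of 9 lay above it, namely Lcn2, and in the dendritic cell list 1 of 8. None of 3 B cell and 4 mast cell markers lay above it, nor did 4 of 6 stromal markers, while 3 of 4 endothelial markers did. The summed signal of the neutrophil list was 71.1 to 86.9 in controls and 88.0 to 99.1 with JG-98, and that of the endothelial list 86.9 to 90.6 and 91.1 to 94.5. None of the 4 endothelial markers parted the groups alone, and none reached an unadjusted limma p under 0.05. The neutrophil sum parted the groups through Lcn2, which differed by 0.62 ± 0.13, and without it the sums overlapped, at 55.4 to 66.2 in controls and 61.7 to 69.2 with JG-98. The part of these markers in the values below was not tested. In such bulk samples, fewer cells of a type and less RNA per cell cannot be told apart.

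Of the 36 chemokine ligand genes, 11 lay well above the dim range, 4 lay above it by less, and 21 lay within it. The 11 were Ccl9, Ccl3, Cxcl16, Pf4, Ccl6, Ccl2, Cxcl14, Ccl7, Ccl4, Ccl25 and Ccl5. Ccl2, Ccl7, Ccl3, Ccl4 and Ccl5 had every JG-98 value above every control value. These are 5 of the 7 monocyte-attracting CC ligands well above the dim range. In the others, Ccl9 and Ccl6, the groups overlapped. None of the 11 had every JG-98 value below every control value. Ccl5 reached this class only through its JG-98 values, since its control mean of 4.36 lies under the bound, and without it 4 of 10 had all treated values above the controls. Among all 10546 probe sets well above the dim range, 11.3% had their 3 treated values above the 3 control values and 15.0% had them below. Over all 25206 probe sets these shares were 7.12% and 8.44%.

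None of the 36 passed the limma test at an adjusted p under 0.05, a threshold that 10 probe sets passed (0.0397% of 25206). At an unadjusted p under 0.05 limma gave 6 members higher, namely these 5 and Ccl1, and 1 lower, Cxcl11. Over all probe sets 3.84% were higher and 4.48% lower at that p. Among the 11 members well above the dim range 5 were higher and 0 lower, or 4 of 10 and 0 without Ccl5, beside 5.46% and 7.31% of probe sets at such levels. The median difference, JG-98 minus control, was 0.04 on the log2 scale over the 36 members and -0.01 over the 15 above the dim range, beside 0.00080 over all probe sets.

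**Figure D1:**
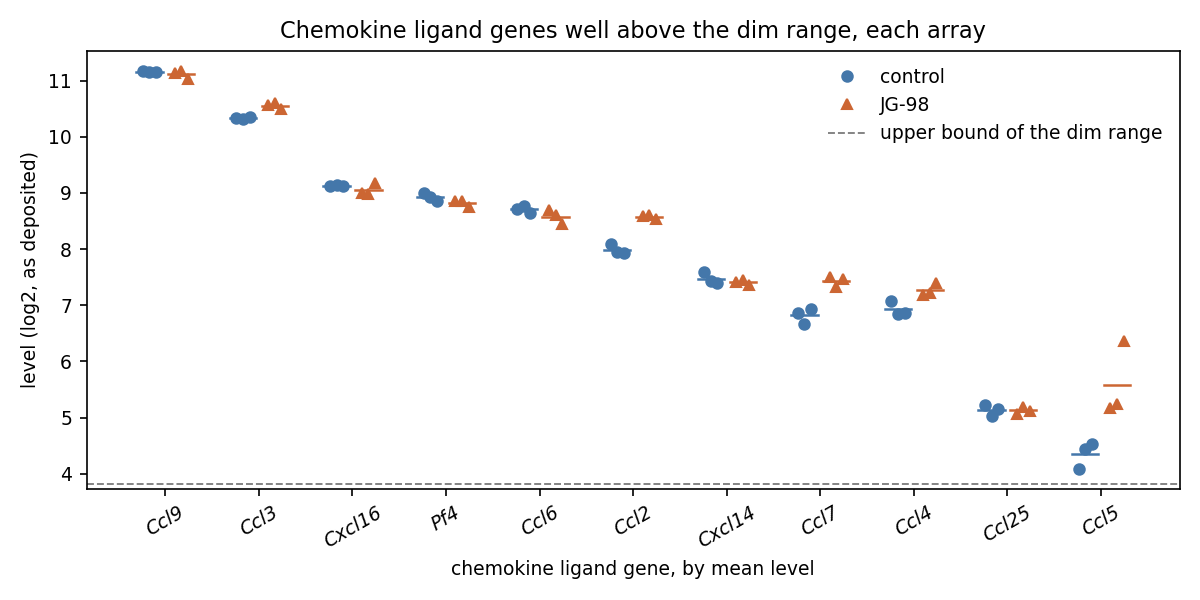
Log2 level (vertical axis) of the 11 chemokine ligand genes well above the dim range, in order of mean level (horizontal axis). Each point is 1 array, replicates 1 to 3 from left to right, with a bar at the group mean, and the dashed line at 3.82 is the upper bound of the dim range. Ccl3, Ccl2, Ccl7, Ccl4 and Ccl5 have all 3 JG-98 arrays above all 3 control arrays.

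Ccl2, also known as MCP-1, is the main ligand that draws monocytes out of the marrow and into tissue through CCR2. Its levels were 8.09, 7.95 and 7.94 on the control arrays and 8.59, 8.61 and 8.54 on the JG-98 arrays. Each group was tight, with SDs of 0.085 and 0.038, and the groups were separated by a clear gap. The log2 difference was 0.59 ± 0.072 (SE, n = 3 per group), which is 1.50-fold with a 95% interval from 1.33 to 1.69. Its unadjusted p ranked 21st among 25206 probe sets, at a limma adjusted p of 0.13. Of 14 other settings, 4 put it past the threshold, namely an intensity trend (adjusted p = 0.0020), a filter at the median level (0.024), a filter at the dim range (0.033) and array weights (0.044). Those settings called 1.01%, 0.714%, 0.317% and 0.0992% of the probe sets they tested, so each called more than the fit described. Over the 14 settings its adjusted p ranged from 0.0020 to 0.62.

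Ccl7, or MCP-3, is a close relative of Ccl2 that uses the same receptor and others. Its control levels were 6.87, 6.66 and 6.93, and its JG-98 levels were 7.50, 7.33 and 7.48. The lowest treated array lay clearly above the highest control array. The log2 difference was 0.61 ± 0.096 (SE, n = 3 per group), or 1.53-fold with a 95% interval from 1.30 to 1.79 (limma adjusted p = 0.20). It passed with an intensity trend (adjusted p = 0.013) and with a filter at the median level (adjusted p = 0.0496), in a range from 0.013 to 0.67 over the 14 settings.

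The other relatives of Ccl2 were at or near the dim range. Ccl12, the mouse MCP-5, which acts through CCR2, was at 3.88, 3.82 and 4.10 in controls and at 4.12, 4.15 and 3.60 with JG-98. The groups overlapped, with a difference of 0.02 ± 0.17 (SE) and a 95% interval from -0.37 to 0.42. Ccl8, the ligand called MCP-2, was between 1.83 and 2.11 on every array, deep in the dim range, with a difference of 0.02 ± 0.090.

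Ccl3 and Ccl4, the macrophage inflammatory proteins 1-alpha and 1-beta, attract monocytes, T cells and NK cells. Ccl3 had one of the brightest signals among the ligands, at 10.33, 10.31 and 10.35 in controls and 10.56, 10.59 and 10.49 with JG-98. Its control arrays agreed to an SD of 0.020, and all treated arrays lay above them. The log2 difference was small, 0.22 ± 0.064 (SE, n = 3 per group), or 1.17-fold with a 95% interval from 1.05 to 1.29 (limma adjusted p = 0.44). With an intensity trend, which gave it a smaller SE of 0.034, the adjusted p was 0.021, in a range from 0.021 to 0.85 over the 14 settings.

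Ccl4 was at 7.08, 6.84 and 6.86 in controls and at 7.19, 7.22 and 7.40 with JG-98. Control replicate 1 came close to the treated arrays without reaching them. The log2 difference was 0.34 ± 0.098 (SE, n = 3 per group), or 1.27-fold with a 95% interval from 1.08 to 1.49 (limma adjusted p = 0.44). It passed in none of the 14 other settings, where its adjusted p ranged from 0.12 to 0.79. The annotated spans of Ccl3 and Ccl4 overlap in the RefSeq gene table, and whether their probe sets share signal was not tested.

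Ccl5, known as RANTES, attracts T cells, monocytes and eosinophils and is made by T and NK cells as well as by activated macrophages. It showed the widest difference of the 36 and a wide spread. Control levels were 4.09, 4.45 and 4.53, above the dim range but not well above it. JG-98 levels were 5.16, 5.24 and 6.36, with replicate 3 more than 1 log2 unit above the other treated arrays. The log2 difference was 1.23 ± 0.33 (SE, n = 3 per group), or 2.34-fold with a 95% interval from 1.37 to 4.02 (limma adjusted p = 0.41). Without JG-98 replicate 3 it was 0.84. It passed in none of the 14 other settings, where its adjusted p ranged from 0.096 to 0.79.

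Ccl5 is also a T and NK cell product, and the part of such cells in its values was not tested. The summed linear signal of their 6 markers, 4 of them in the dim range, was 59.2 to 66.8 on the control arrays and 57.3 to 67.8 on the JG-98 arrays, and none of the 6 reached an unadjusted limma p under 0.05. Xcl1, a ligand of the C class that T and NK cells make for cross-presenting dendritic cells, lay in the dim range, with a difference of 0.10 ± 0.19.

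**Figure D2:**
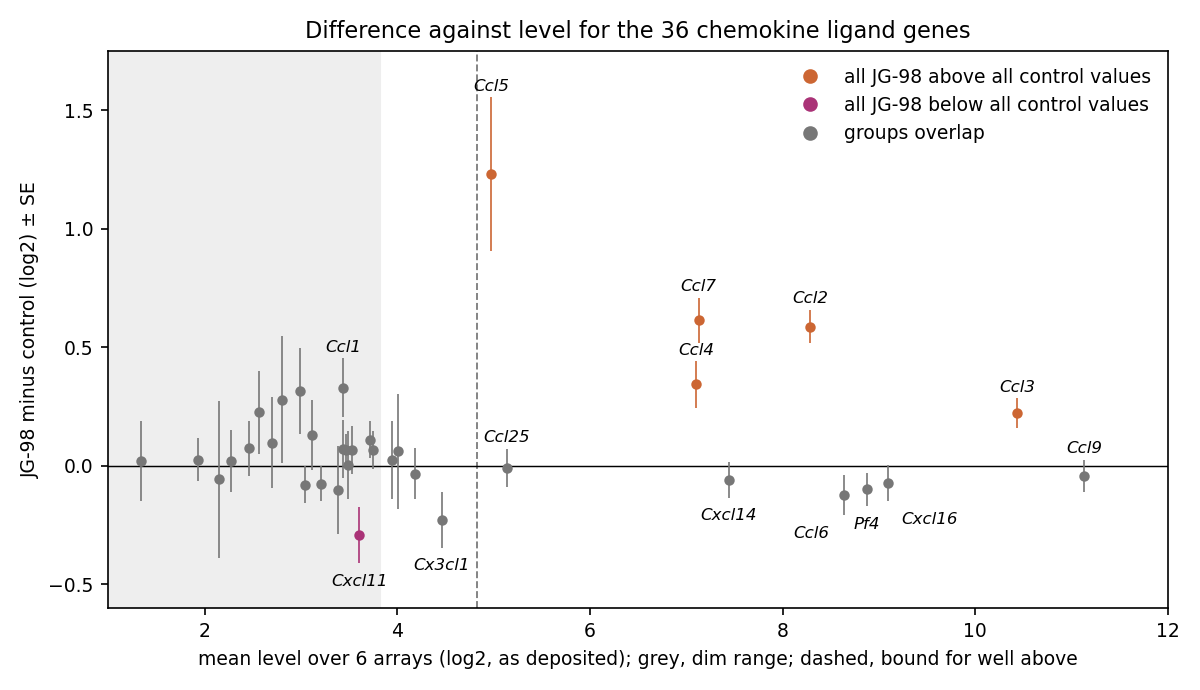
Difference between JG-98 and control (vertical axis, log2, ± moderated SE) against mean level over 6 arrays (horizontal axis, log2) for the 36 genes, coloured by whether the groups of 3 overlap. Ccl5, Ccl7, Ccl2, Ccl4 and Ccl3 lie between 0.22 and 1.23, while the other 6 genes well above the dim range lie between -0.13 and -0.01.

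Ccl9 and Ccl6, CC ligands of mice that act mainly through CCR1 and are known as steady products of myeloid cells, had slightly lower means with JG-98, by less than the test could separate. Ccl9 had the brightest signal of the family, at 11.18, 11.14 and 11.14 in controls and 11.13, 11.18 and 11.02 with JG-98. These groups overlapped, and the difference was -0.04 ± 0.068 on the log2 scale, with a 95% interval from -0.21 to 0.12. Ccl6 was at 8.72, 8.76 and 8.64 in controls and 8.69, 8.60 and 8.45 with JG-98. Its difference was -0.13 ± 0.085, with a 95% interval from -0.33 to 0.08. In both genes JG-98 replicate 3 was the lowest array, and without it the differences were -8.7e-05 and -0.061.

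The genes lie in order on chromosome 11 in 2 groups, according to the RefSeq table of assembly GRCm38.p6. Ccl2, Ccl7, Ccl11, Ccl12, Ccl8 and Ccl1 follow one another with no other protein-coding gene between them. After 25 other coding genes come Ccl5, Ccl9, Ccl6, Ccl3 and Ccl4, again with none between. Ccl2 and Ccl7, whose differences were close, are neighbours at one end of the first group. In the second group Ccl9 and Ccl6, with differences of -0.04 and -0.13, stand between Ccl5 and the pair of Ccl3 and Ccl4. The chromosome holds 12 of the 36 members in all, the other being Cxcl16, and it holds each of the 5 genes whose treated values all lay above the controls. Those 5 are among the 11 members well above the dim range, of which only Pf4, Cxcl14 and Ccl25 lie on other chromosomes.

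**Figure D3:**
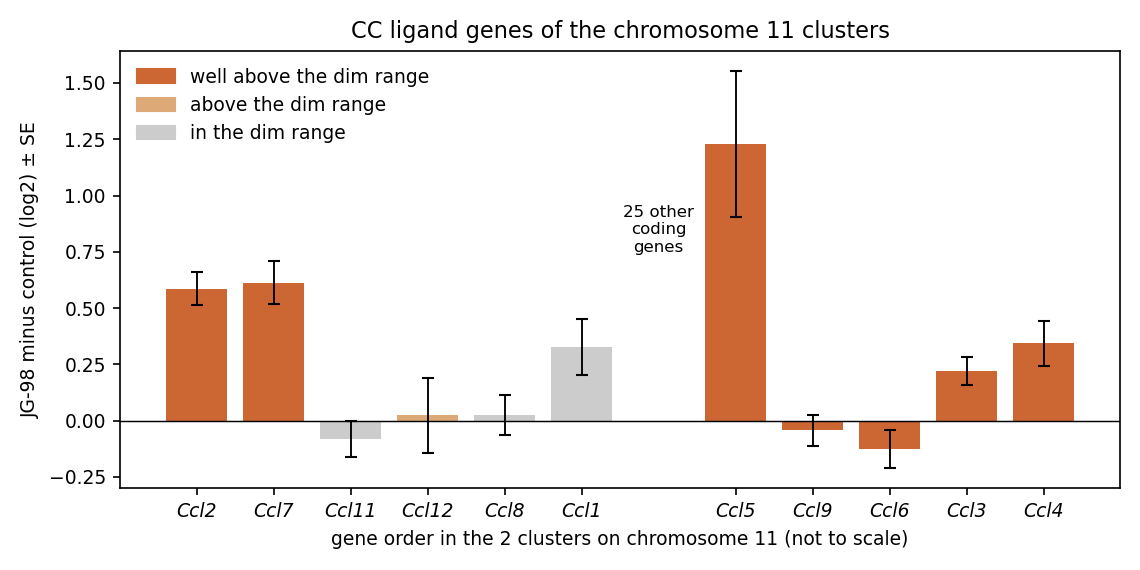
Difference between JG-98 and control (vertical axis, log2) for the 11 CC ligand genes of the clusters on chromosome 11, in gene order (horizontal axis, not to scale). Bars start at 0, error bars are the moderated SE, and colour gives the level class. The bars of Ccl2, Ccl7, Ccl5, Ccl3 and Ccl4 stand above 0 by more than their SE, as does that of the dim Ccl1. Those of Ccl9, Ccl6 and the dim Ccl11 lie below 0.

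Promoter sequences from RefSeq, build GRCm38.p6, were matched to 25 of the 36 members. Ccl2, Ccl4, Ccl5, Ccl7, Ccl11, Ccl24, Ccl26, Cxcl5, Cxcl11, Cxcl16 and Cxcl17 were not searched. Of the 11 members well above the dim range 6 were searched. Ccl3 was the only searched gene whose treated values all lay above the controls. The 250 bases before each start site were searched on both strands for kappa B sites in 2 spellings of 10 letters with 1 free base each, an ISRE-like site of 10 letters, AP-1 (TGANTCA), CRE (TGACGTCA) and the CARE element of ATF4 with C/EBP (TGATGNAAT). Ccl3 and Ccl9, which have Ccl6 between them on the chromosome, are shown because both are bright. The groups were apart in the first and overlapped in the second. Capitals mark a match. Ccl3 is read from chr11:83649379-83649628 on the minus strand, and Ccl9 from chr11:83578637-83578886 on the minus strand.
Ccl3: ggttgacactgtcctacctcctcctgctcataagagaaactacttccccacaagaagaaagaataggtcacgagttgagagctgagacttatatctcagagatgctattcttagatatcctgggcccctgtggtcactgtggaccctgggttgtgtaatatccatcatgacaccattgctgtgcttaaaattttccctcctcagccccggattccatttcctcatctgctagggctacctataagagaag
Ccl9: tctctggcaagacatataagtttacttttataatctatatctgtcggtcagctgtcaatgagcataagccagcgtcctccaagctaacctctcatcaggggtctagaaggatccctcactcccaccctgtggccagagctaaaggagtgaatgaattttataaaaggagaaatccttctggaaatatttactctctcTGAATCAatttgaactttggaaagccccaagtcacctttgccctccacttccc

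The window of Ccl3 holds none of these letter strings, and that of Ccl9 holds 1 AP-1 match. AP-1 matches stood in 3 of the 25 members (Ccl9, Cxcl10 and Ppbp) and in 6.75% of all 32851 promoter windows. The ISRE-like string stood in Ccl19, Cxcl10 and Cxcl14 and in 2.98% of all windows. The CRE and CARE strings stood in none of the 25 and in 1.55% and 0.816% of all windows. A match is a string of letters and not a measured binding site.

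Cxcl1, Cxcl2, Cxcl3, Cxcl5 and Ppbp encode CXC ligands that attract neutrophils through CXCR2, and all 5 lay in the dim range. Cxcl1, the mouse KC, was at 3.29, 3.36 and 3.79 in controls and 3.56, 3.37 and 3.53 with JG-98. Cxcl2, or MIP-2, was at 3.25, 2.17 and 2.58 in controls and 3.14, 2.98 and 2.71 with JG-98. Both genes had overlapping groups. Their differences were 0.00344 ± 0.14 and 0.28 ± 0.27 on the log2 scale, and the interval for Cxcl2 ran from -0.36 to 0.92. Cxcl3 lay between 1.04 and 1.60 on every array, Cxcl5 between 3.40 and 3.55 and Ppbp between 3.12 and 3.32. None of the 5 reached an unadjusted limma p under 0.05.

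Cxcl1, Cxcl2 and Cxcl3 were the only members among the 25 searched with a kappa B match, and each matched both spellings at the same letters, GGGAATTTCC. The spellings stood in 0.356% and 0.280% of all windows. Of the other dim CXCR2 ligands, Ppbp had no kappa B match and Cxcl5 was not searched. Ccl2, Ccl4, Ccl5 and Ccl7 were not searched either, so the search cannot set them against these genes. The last 100 bases before each start site are shown for Cxcl1, Cxcl2 and Cxcl3, with the kappa B match in capitals. They are read on the plus strand from chr5:90891145-90891244, chr5:90903799-90903898 and chr5:90786001-90786100.
Cxcl1: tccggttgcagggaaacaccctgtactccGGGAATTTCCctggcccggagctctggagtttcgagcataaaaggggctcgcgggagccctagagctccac
Cxcl2: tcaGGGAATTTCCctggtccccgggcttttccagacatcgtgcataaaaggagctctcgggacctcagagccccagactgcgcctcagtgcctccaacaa
Cxcl3: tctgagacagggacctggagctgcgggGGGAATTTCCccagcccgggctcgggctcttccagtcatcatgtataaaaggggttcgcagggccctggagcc
The match begins 71, 97 and 73 bases before the start site in Cxcl1, Cxcl2 and Cxcl3.

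Pf4, or platelet factor 4, is best known from platelet granules and is also made by macrophages. It was at 8.99, 8.92 and 8.86 in controls and 8.85, 8.86 and 8.75 with JG-98, so the groups nearly parted but overlapped. The difference was -0.10 ± 0.071 on the log2 scale (95% interval -0.27 to 0.07, limma adjusted p = 0.77). Of the platelet markers Itga2b and Gp9 were close to the bound of the dim range, at 3.69 to 4.25 over all arrays, and Ppbp was within it. Cxcl16, a membrane-bound ligand of CXCR6 that also takes up oxidised lipoprotein, was at 9.12, 9.14 and 9.12 in controls and 9.01, 8.98 and 9.18 with JG-98. JG-98 replicate 3 stood above all controls and the other treated arrays below them. The difference was -0.07 ± 0.076, and without that array it was -0.14.

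Cxcl14 and Ccl25, which are known mainly from epithelia and thymus, were the homeostatic ligands well above the dim range. Cxcl14 was at 7.59, 7.43 and 7.40 in controls and 7.41, 7.46 and 7.37 with JG-98, a difference of -0.06 ± 0.076 with a 95% interval from -0.24 to 0.12. Ccl25 was at 5.23, 5.03 and 5.16 in controls and 5.07, 5.20 and 5.12 with JG-98. Its difference of -0.01 ± 0.080 changed sign with the setting and had a 95% interval from -0.20 to 0.18. The other 6 homeostatic ligands, Ccl19, Ccl28, Cxcl12, Cxcl13, Cxcl15 and Cxcl17, lay in the dim range with differences between -0.06 and 0.11.

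The CXCR3 ligands Cxcl9, Cxcl10 and Cxcl11 are classical products of interferon signalling that attract T cells. Cxcl10 was just above the dim range, at 4.18, 4.11 and 4.31 in controls and 4.36, 4.10 and 4.03 with JG-98, with a difference of -0.03 ± 0.11. Cxcl9 was in the dim range, between 2.23 and 2.96, with a difference of 0.22 ± 0.17. Cxcl11, which RefSeq lists as a transcribed pseudogene in the C57BL/6J reference, was at 3.73, 3.82 and 3.71 in controls and 3.21, 3.60 and 3.57 with JG-98. Every treated value lay below every control, within the dim range. The difference was -0.29 ± 0.12 on the log2 scale (limma adjusted p = 0.58).

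Ccl1, Ccl17, Ccl20 and Ccl22 attract T cells and dendritic cells through CCR8, CCR4 and CCR6. Ccl1 lay in the dim range at 3.51, 3.21 and 3.10 in controls and 3.58, 3.74 and 3.49 with JG-98. JG-98 replicate 3 lay just below control replicate 1, so the groups overlapped. The difference was 0.33 ± 0.12 on the log2 scale (limma adjusted p = 0.56). Ccl20 varied among replicates more than between groups, with 3.52 to 4.26 in controls and 3.78 to 4.42 with JG-98. Ccl22 was between 2.50 and 3.39 and Ccl17 between 2.05 and 2.45, both in the dim range, with differences of 0.32 ± 0.18 and 0.02 ± 0.13.

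The eosinophil-attracting ligands Ccl11, Ccl24 and Ccl26, or eotaxins, which act through CCR3, all lay in the dim range. Their differences ran from -0.10 to 0.13. Cx3cl1, or fractalkine, the membrane-tethered ligand of CX3CR1, was just above the dim range at 4.65, 4.52 and 4.56 in controls. With JG-98 it was at 4.11, 4.39 and 4.54, so only replicate 3 reached into the control range. The difference was -0.23 ± 0.12 (limma adjusted p = 0.68).

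Over the 21 members in the dim range, 16 had a higher mean with JG-98, and the median difference was 0.07 on the log2 scale. Without JG-98 replicate 3, the array with the highest median, 10 of the 21 did so and the median was -0.02. After median centring of the arrays 13 did so. Of all 11306 probe sets in the dim range, 5882 had a higher mean with JG-98 in the fit described, at a median of 0.0062. The median over all probe sets was -0.016 without JG-98 replicate 3 and -0.019 after centring. The members on either side of the dim bound were Ccl12 at a mean of 3.94 and Cxcl17 at 3.75.

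**Figure D4:**
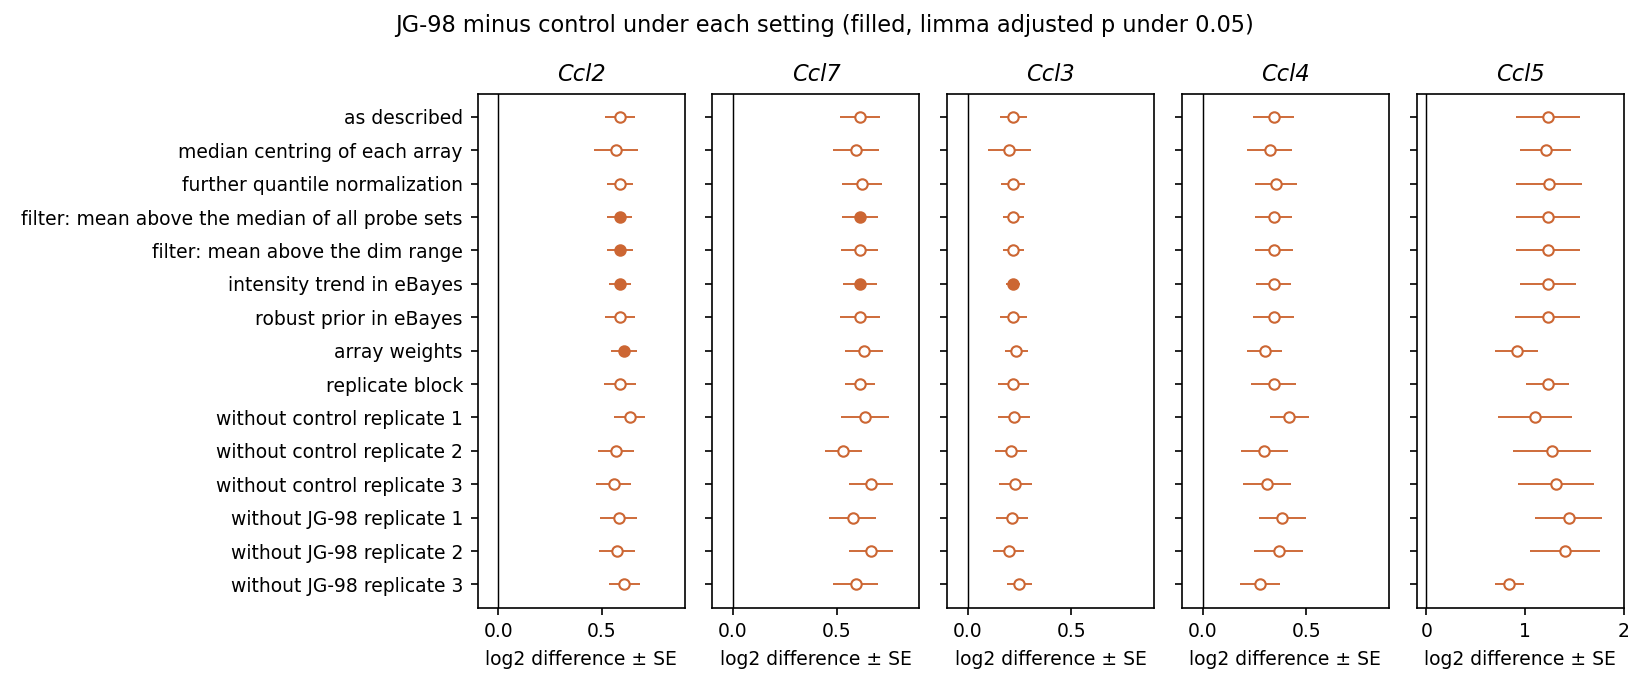
Difference between JG-98 and control (horizontal axis, log2, ± moderated SE) for Ccl2, Ccl7, Ccl3, Ccl4 and Ccl5 under the fit described and 14 other settings (vertical axis). Filled points have a limma adjusted p under 0.05. All points lie above 0, with Ccl2 between 0.56 and 0.64 and Ccl5 between 0.84 and 1.44 over the other settings. Of these settings only the rescalings could have altered the sign.

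Receptors, regulators and modifiers of the chemokines were taken as lists, and no gene of any list passed at an adjusted p under 0.05. Of 22 receptor genes, 10 lay above the dim range. At an unadjusted limma p under 0.05, 3 were lower, Cxcr4, Ccr3 and the dim Ccr4, and 0 were higher, beside 4.48% and 3.84% of all probe sets. Cxcr4, the receptor of Cxcl12, was at 8.86, 8.88 and 8.85 in controls and 8.53, 8.52 and 8.46 with JG-98. Its difference was -0.36 ± 0.061 (limma adjusted p = 0.23), while its ligand Cxcl12 lay in the dim range at 3.38 to 3.67. Ccr3, the receptor of the eotaxins, differed by -0.35 ± 0.10. The median over the receptors was -0.01.

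All 22 measured transcriptional regulators lay well above the dim range, and at an unadjusted limma p under 0.05 there were 3 higher and 3 lower, beside 5.46% and 7.31% of probe sets at such levels. Atf4, the effector of the integrated stress response, was at 7.91, 7.86 and 8.08 in controls and 8.49, 8.34 and 8.33 with JG-98, a difference of 0.44 ± 0.088. Atf3, a stress-induced factor that often represses inflammatory genes, differed by 0.19 ± 0.060. Of the NF-kB inhibitors and their relatives, Tnfaip3 differed by 0.26 ± 0.065 and Nfkbie by -0.31 ± 0.075. Nfkbia, Nfkbib and Nfkbiz differed by 0.03, 0.06 and 0.02 with overlapping groups. The other regulators lower at that unadjusted p were Irf1, at -0.21 ± 0.066, and Irf7, at -0.39 ± 0.16 with overlapping groups. The median of the list was 0.01.

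Of 12 cytokines that induce or restrain chemokines, 3 lay above the dim range, and Il1a, Il1b, Il6, Ifnb1, Ifng, Il4, Il17a, Csf2 and Il10 lay within it. At an unadjusted limma p under 0.05 there were 2 higher and 0 lower, beside 3.84% and 4.48% of all probe sets. Csf1, the growth factor of macrophages, was at 5.11, 4.95 and 4.84 in controls and 6.02, 5.99 and 5.68 with JG-98, a difference of 0.93 ± 0.12 or 1.91-fold (limma adjusted p = 0.13). Tnf, which induces chemokines through NF-kB, had a mean of 7.96 ± 0.037 (SD, n = 3) in controls and 8.22 ± 0.051 (SD, n = 3) with JG-98. Its difference was 0.26 ± 0.065 (limma adjusted p = 0.38), and its groups did not overlap.

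Among 11 proteases that cut or shed chemokines, 1 was lower at an unadjusted limma p under 0.05 and 0 were higher, beside the same shares of all probe sets. Mmp8, a collagenase that also trims chemokines, was at 7.11, 6.99 and 6.95 in controls and 6.22, 6.35 and 6.16 with JG-98, a difference of -0.77 ± 0.082 (limma adjusted p = 0.089). Adam17, known for shedding membrane-bound ligands such as Cx3cl1, differed by -0.12 ± 0.086. Dpp4, Mmp2, Mmp9, Ctsg, Elane and Prtn3 lay in the dim range.

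**Figure D5:**
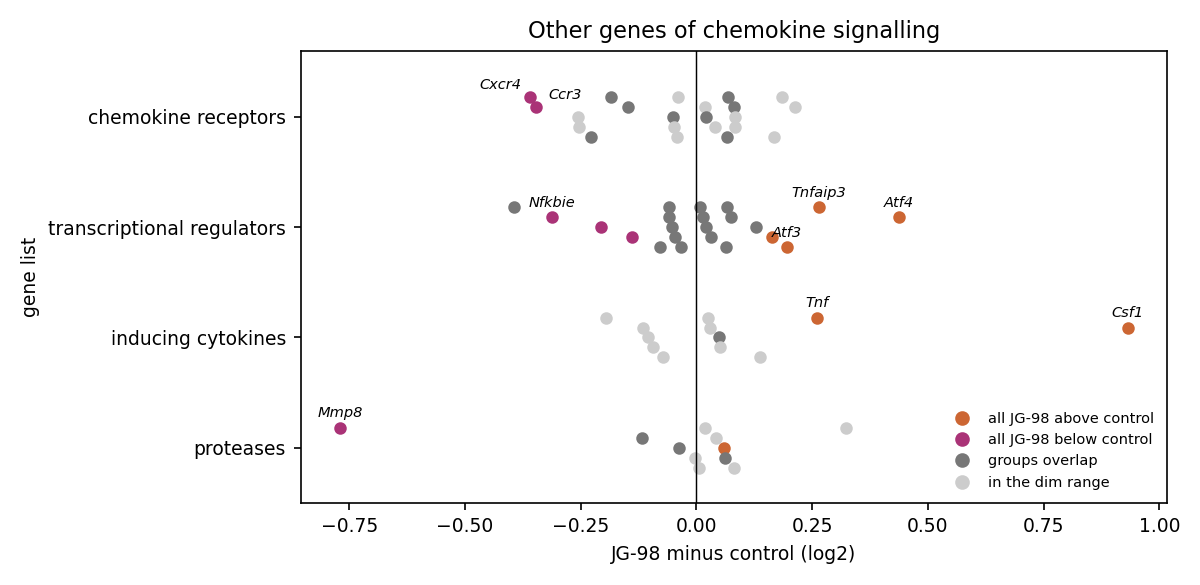
Difference between JG-98 and control (horizontal axis, log2) for each measured receptor, transcriptional regulator, cytokine and protease (vertical axis, 1 row per list, points spread for legibility). Colour gives whether the groups of 3 overlap, and pale points lie in the dim range. The points farthest from 0 are Csf1 at 0.93 and Mmp8 at -0.77.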

How the data were processed

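Values are the log2 levels that the authors deposited, with 1 for each probe set on each array. The tools RMA, affy and R 2.15.1 are named, without roles, in the submitters' processing notes. RMA as generally defined equalises arrays and compresses differences of dim probe sets. The deposited values did not have equal array medians, which lay between 4.08 and 4.24. The sources used here give no genome build for the probe sets. Symbols came from the platform annotation through Entrez numbers, with 2021 probe sets unnamed, and all 23185 named ones matched RefSeq's GRCm38.p6 table.

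Groups followed the sample titles. The test was limma's (version 3.58.1, R 4.3.3, two-sided, no covariate), by lmFit with eBayes, on all 25206 probe sets, with Benjamini-Hochberg adjustment over all of them. An SE or 95% interval is the moderated one, on 4 residual and 2.59 prior degrees of freedom. The fit for JG-98 against control was tested on simulated data, in 20 draws of 25206 probe sets where 200 had been altered. It found 17.4% of changes of 0.5, 78.5% of 1 and 96.2% of 2 on the log2 scale.

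Members and lists were chosen with earlier results of these data known. Array values are given for members well above the dim range, for those above it that separated the groups or reached an unadjusted p under 0.05, and for others where they illustrate a group, chosen after values were seen. From each other list up to 4 genes by smallest p were eligible, and Adam17 was chosen for its substrate. Of the regulators, Irf1, Irf7, Nfkbia, Nfkbib and Nfkbiz were named beyond these 4. Some listed genes are not reported here. Summed signals add the values after undoing the log2. Other settings were scaling, filters on dim probe sets, the eBayes prior, array weights with statmod 1.5.0, a replicate block and leaving out each array. The number of arrays limits precision.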

Additional observations from a re-analysis of the deposited data

How the results depend on the processing

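Ccl2, Ccl7, Ccl3, Ccl4 and Ccl5 stayed higher with JG-98 in all 14 other settings. Under both rescalings all 5 kept every JG-98 value above every control value. The shares over all probe sets were 4.51% after median centring and 8.47% after quantile normalization. Leaving out an array cannot undo such a separation or its sign, so those settings do not test it. The filters, the changes of the eBayes prior and the replicate block leave the difference itself as it was. Array weights cannot turn the sign where the groups are fully apart. Only the rescalings could therefore have altered the direction. The count of probe sets past the threshold was 10. It was 90 with the filter at the median level, 44 with the filter at the dim range, 254 with an intensity trend, 25 with array weights, and 0 to 5 when each array was left out (5 in the case of JG-98 replicate 3, 0 in the other cases). The count of chemokine ligand genes past it was 2, 1, 3 and 1 under the first 4 of these and 0 without any one array. The replicate number was used as a block too, giving 0 probe sets and 0 chemokine ligand genes. Same-numbered arrays deviated together at correlations of 0.095, -0.13 and 0.10, and no number's arrays correlated best with each other. No pairing by number was seen, but 3 arrays per group cannot exclude a weak one. The 1 member lower at an unadjusted p was 0 with either filter, which drop it, and 0 with the trend. It was 2 with array weights and 0 to 2 without any one array, with 0 for each control and for JG-98 replicate 1, and 2 for JG-98 replicate 3. Members well above the dim range with every JG-98 value below every control value were 1 after median centring (Cxcl16), 1 after a further quantile normalization (Pf4) and 0 to 2 without any one array. The shares of all probe sets with this order were 8.14%, 8.53% and 11.9% to 16.7% in those settings. With fewer arrays such an order arises more easily. The median over the members above the dim range ran from -0.051 to 0.019 when each array was left out, reversed only in the case of control replicate 3. Ccl25 ran from -0.065 to 0.039 then and reversed to 0.00165 after quantile normalization, turning positive in 4 settings in all. The causes were not tested. With the median of all probe sets as the bound 13 members lay above it, and with 1 log2 unit more 11 did, beside 15. Leaving out Ccl5 or Lcn2, a choice made after seeing the data, is given beside the counts and sums it touches. Level limits what can be read of the 21 dim members.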
